A study of Homo sapiens with 14 samples.

Results

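The mitochondrial chromosome carries 37 genes, and all 37 were found by chromosome among the 58037 gene IDs of the count table: 13 mRNAs, 2 rRNAs and 22 tRNAs. The cells were OCI-AML2, a line grown from a human acute myeloid leukaemia, with RUNX1 intact (wild type, the parent line) or with R174*, a premature stop codon, on 1 RUNX1 allele (mutant). The mutant cells were the lines F3 and G7, and whether each is a single clone is not given in the sources used here. Total RNA came from 2 untreated wild-type libraries, 4 mutant control libraries (replicates 1 and 2 from F3, 3 and 4 from G7) and 4 mutant libraries treated with 100 nM homoharringtonine (HHT) for 8 h (1 and 2 from F3, 3 and 4 from G7). RiboLace, which captures translating ribosomes and their RNA on a puromycin analogue, was run on 2 wild-type and 2 mutant samples, both of the latter from F3. Mutant controls are labelled as control for 8 h in one field and as 0 h in another, and wild-type libraries as untreated, so in total RNA the genotype and the handling of controls cannot be told apart, nor can HHT and hours in culture.

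Human mitochondrial DNA is transcribed from both strands into long RNAs that are cut at the tRNAs between the coding genes, which frees mRNAs, rRNAs and tRNAs from the same precursor. The mRNAs encode core subunits of complex I (MT-ND genes), complex III (MT-CYB), complex IV or cytochrome c oxidase (MT-CO genes) and ATP synthase (MT-ATP genes), and are translated inside mitochondria by ribosomes that hold the rRNAs MT-RNR1 and MT-RNR2. All other subunits, and every protein that transcribes, matures and translates these RNAs, come from nuclear genes translated in the cytosol, where HHT blocks elongation. Steady-state levels differ between mitochondrial RNAs of the same precursor because they are matured and degraded at different rates.

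In GRCh38, 28 of the 37 genes lie on the forward strand of chromosome M and 9 on the reverse strand, the latter being MT-ND6 and 8 tRNAs. MT-ATP8 (chrM:8366-8572) and MT-ATP6 (chrM:8527-9207) share 46 bases, and MT-ND4L (chrM:10470-10766) and MT-ND4 (chrM:10760-12137) share 7, so these pairs are read from shared transcripts and reads in the overlap belong to both. Of the 13 mRNAs, 7 end in a full stop codon, with AGA of MT-CO1 and AGG of MT-ND6 counted as stops. The other 6 end in T or TA, the remaining bases of the stop being added as a poly(A) tail. The overlap and 4 of the ends are shown because the counts of these mRNAs depend on where genes begin and end. The sequences are written 5′ to 3′ from the GENCODE release 29 transcripts. Capitals mark the start codon of MT-ATP6 and the stop codon of MT-ATP8 in the overlap (chrM:8527-8572, forward strand), and the last codon or the lone final bases of the others.
MT-ATP8/MT-ATP6: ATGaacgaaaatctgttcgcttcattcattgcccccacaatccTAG
MT-CO2: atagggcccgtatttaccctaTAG
MT-ND1: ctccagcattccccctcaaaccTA
MT-ND4: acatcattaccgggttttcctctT
MT-CYB: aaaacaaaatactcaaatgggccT

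The tRNAs are 59 to 75 bases long, and the RiboLace libraries differ from total RNA most in them. The 6 with most RiboLace reads are shown first, followed by the 4 with no read in any of the 14 libraries; all are given 5′ to 3′ on the gene's own strand, in lower case since no stretch is singled out.
MT-TP: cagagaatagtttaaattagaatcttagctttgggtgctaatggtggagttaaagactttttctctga
MT-TL1: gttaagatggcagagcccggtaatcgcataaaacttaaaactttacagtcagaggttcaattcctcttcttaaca
MT-TH: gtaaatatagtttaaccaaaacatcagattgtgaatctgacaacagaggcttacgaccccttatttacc
MT-TF: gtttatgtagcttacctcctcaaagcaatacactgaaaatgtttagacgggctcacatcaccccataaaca
MT-TS2: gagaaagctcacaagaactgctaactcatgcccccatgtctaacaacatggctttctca
MT-TT: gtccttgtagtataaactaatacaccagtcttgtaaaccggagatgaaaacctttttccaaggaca
MT-TQ: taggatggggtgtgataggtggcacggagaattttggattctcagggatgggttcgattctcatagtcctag
MT-TN: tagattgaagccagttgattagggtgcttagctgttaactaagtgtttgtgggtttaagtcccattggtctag
MT-TS1: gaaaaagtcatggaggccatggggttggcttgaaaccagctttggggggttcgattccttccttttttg
MT-TK: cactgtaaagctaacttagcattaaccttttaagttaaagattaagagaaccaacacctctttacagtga
MT-TP (proline, chrM:15956-16023), MT-TQ (glutamine, chrM:4329-4400), MT-TN (asparagine, chrM:5657-5729) and MT-TS1 (serine, chrM:7446-7514) are on the reverse strand. MT-TL1 (leucine, chrM:3230-3304), MT-TH (histidine, chrM:12138-12206), MT-TF (phenylalanine, chrM:577-647), MT-TS2 (serine, chrM:12207-12265), MT-TT (threonine, chrM:15888-15953) and MT-TK (lysine, chrM:8295-8364) are on the forward strand.

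Library totals were 19250789 to 21925693 reads for total RNA and 465052 to 2034796 for RiboLace, so RiboLace values are the less precise. Replicates varied beyond sampling of reads (chi-square over its degrees of freedom, 3.14 to 12.5). Nothing says that they were separate cultures, so p-values measure the spread between these libraries, which may be technical. All 10 myeloid markers passed 1 CPM in every total RNA library, summing to 2977 to 5612 CPM. Erythroid markers summed to at most 0.156 CPM, with HBA1, HBB and ALAS2 at 0. CPM are reads scaled to library size, for these markers by library totals alone and in all that follows by TMM factors. RUNX1 itself had 1518 to 4181 reads per total RNA library, and gene counts do not separate its alleles. Bulk libraries cannot tell fewer cells with an RNA from less of it per cell.

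Of all reads in wild-type total RNA, 2.53% and 2.22% fell on mitochondrial genes. The share was 3.59% and 2.71% for untreated F3, 1.76% and 1.69% for F3 with HHT, 3.80% and 4.20% for untreated G7 and 2.98% and 2.99% for G7 with HHT. RiboLace libraries held 5.93% and 3.99% in wild type and 4.12% and 5.63% in F3, where replicates of a genotype differed from each other as much as the genotypes did.

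Per kb of annotated length, complex IV mRNAs were the most abundant mitochondrial mRNAs of wild-type total RNA. MT-CO2 stood at 4740 ± 896 CPM per kb (SD, n = 2), MT-CO1 at 3226 ± 264 and MT-CO3 at 3094 ± 518, ahead of MT-ND4 at 2458 ± 231 and MT-ATP6 at 1686 ± 374. The neighbours MT-CO1 and MT-CO3 did not differ beyond their spread. The other 8 mRNAs lay between 874 ± 139 for MT-ND2 and 555 ± 29 for MT-ND5, and down to MT-ND6 neighbours in the order lay within 1 SD of each other. MT-ND6, which encodes a complex I subunit and is the one mRNA of the reverse strand, stood at 637 ± 77.3. The large-subunit rRNA MT-RNR2 stood at 2787 ± 108 and the small-subunit rRNA MT-RNR1 at 1107 ± 24.9 CPM per kb, no higher than the leading mRNAs; whether ribosomal RNA was removed before sequencing is not given in the sources used here.

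**Figure D1:**
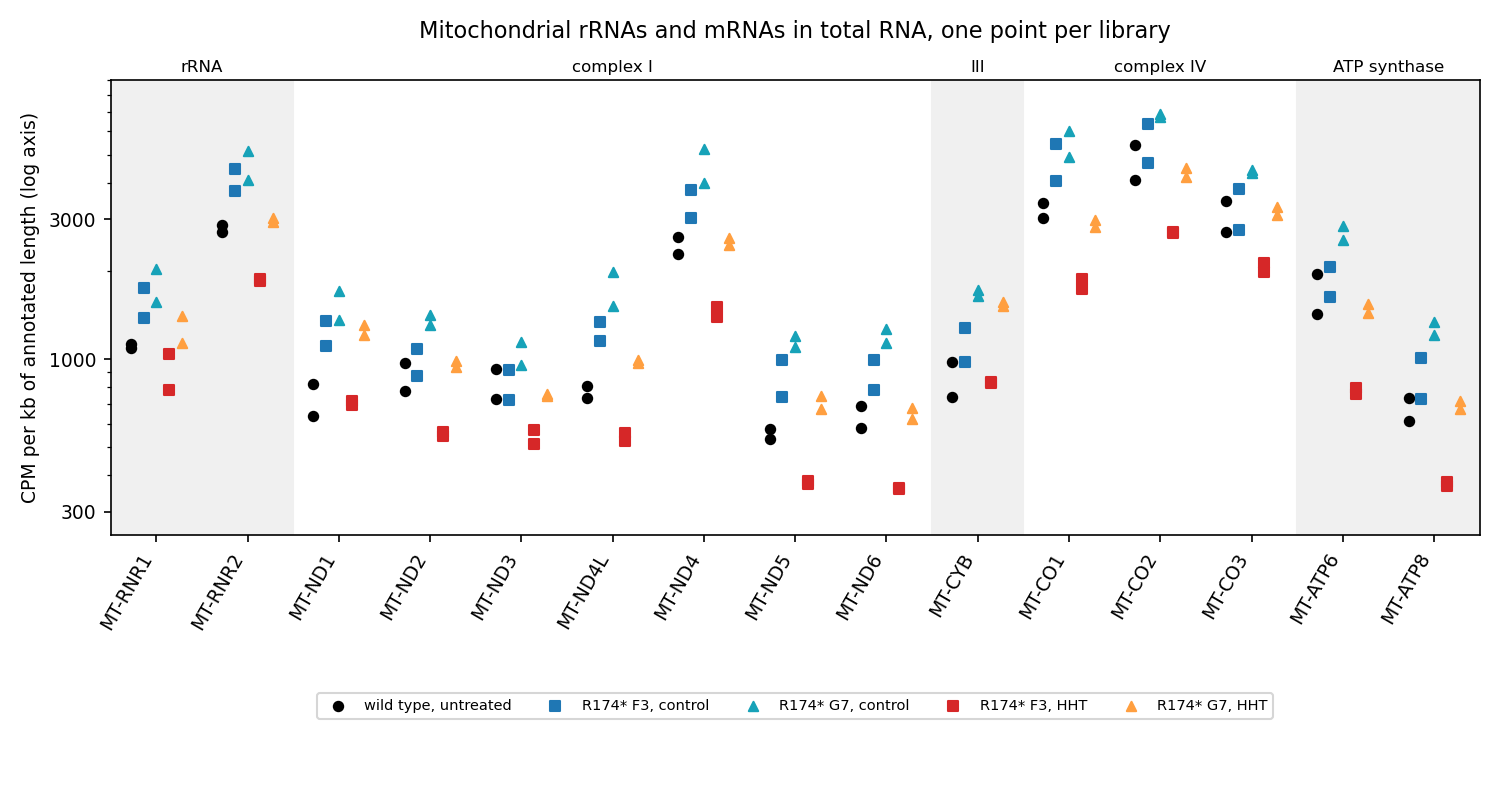
CPM per kb of annotated length, on a log axis, of the 2 rRNAs and 13 mRNAs in the 10 total RNA libraries, each point 1 library, coloured by line and treatment. Control libraries of G7 lie above wild type for all 15 genes, and HHT libraries lie below the controls of their own line for all 15. Each line had few libraries per group, and the share of all genes without overlap was not counted. The separation therefore describes these libraries and does not set mitochondrial genes apart.

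Untreated mutant cells had more of several mitochondrial RNAs than wild type. With F3 and G7 as 1 group, 4 of 13 mRNAs rose by edgeR's quasi-likelihood test with Benjamini-Hochberg adjustment over all genes at 0.05, against 2.49% of all genes tested that rose. These were the complex I mRNAs MT-ND4L, MT-ND1 and MT-ND5 and the complex IV mRNA MT-CO1, and none fell. MT-ND1 stood at 788 and 608 CPM in wild type, at 1291 and 1055 in F3 and at 1295 and 1634 in G7, so every mutant library lay above both wild-type ones. Its log2 fold change was 0.91 ± 0.18 (SE, adjusted p = 0.025), a 1.88-fold difference. MT-CO1, the catalytic core of cytochrome c oxidase, stood at 5262 and 4686 CPM in wild type, 8363 and 6273 in F3 and 7543 and 9311 in G7. Its groups did not overlap either, with a log2 fold change of 0.65 ± 0.16 (adjusted p = 0.0477). MT-ND4L changed by 0.95 ± 0.20 (adjusted p = 0.0307) and MT-ND5 by 0.85 ± 0.18 (adjusted p = 0.0314).

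Of the rRNAs, MT-RNR2 rose by 0.64 ± 0.13 (adjusted p = 0.0328), while MT-RNR1 was at 0.59 ± 0.15 (adjusted p = 0.0557). The other 9 mRNAs did not pass and ran from 0.17 for MT-ND3 to 0.71 for MT-CYB, and MT-TP, the one tRNA with more than 16 reads in any total RNA library, was at 0.50 (adjusted p = 0.0597). MT-TC, the one other tRNA tested, was at 0.18 ± 0.63. Over the 13 mRNAs the median log2 fold change was 0.66, against 0.00 over all genes tested. The calls rest on few wild-type libraries, and those on the mRNAs and on MT-RNR2 were lost when either was left out. Leaving out either one leaves 1 in that group, so only log2 fold changes are given here for those fits. Without wild-type replicate 1 they were 1.109 for MT-ND1, 0.887 for MT-ND4L, 0.908 for MT-ND5 and 0.740 for MT-CO1. Without wild-type replicate 2 they were 0.734, 1.014, 0.801 and 0.573 in the same order. Without F3 control replicate 2, the control with the lowest mitochondrial share, 8 of 13 mRNAs passed. By edgeR, the MT-CO1 call was lost without F3 control replicate 1 (0.623, adjusted p = 0.0841) or G7 control replicate 4 (0.565, adjusted p = 0.0727). The MT-RNR2 call was lost without F3 control replicate 1 (0.627, adjusted p = 0.0615).

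Set against wild type one line at a time, 12 of 13 mRNAs rose in G7 (8.87% of genes tested rose) and 6 of 13 in F3 (9.51% rose). In G7 the rises ran from 0.49 for MT-CO3 to 1.17 ± 0.13 for MT-ND4L (adjusted p = 3.73e-06), and MT-ND3 at 0.34 did not pass. MT-RNR1 rose by 0.69 and MT-RNR2 by 0.72 in G7. In F3 the mRNAs that rose were MT-ND1 (0.74), MT-ND4L (0.68), MT-ND5 (0.64), MT-CO1 (0.55), MT-ND6 (0.47) and MT-ND4 (0.46), and the others lay between -0.02 for MT-ND3 and 0.39 for MT-CYB. Both rRNAs rose in F3 too, MT-RNR1 by 0.49 and MT-RNR2 by 0.55. MT-TP rose by 0.45 in F3 and 0.54 in G7. Without F3 control replicate 1, 2 of 13 mRNAs passed in F3, and the F3 calls on MT-RNR1 (0.31), MT-RNR2 (0.42) and MT-TP (0.27) were lost. Without wild-type replicate 2, 3 of 13 mRNAs passed in F3, the F3 call on MT-TP was lost (0.41), and in G7 those on MT-CO2 (0.33) and MT-CO3 (0.33) were.

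The lines also differed from each other. Untreated G7 had higher levels than untreated F3 of 8 of 13 mRNAs, where 5.46% of all genes tested were higher: MT-CYB by 0.58 ± 0.14 (adjusted p = 0.00861), MT-ATP6 by 0.55, MT-ATP8 by 0.55, MT-ND4L by 0.49, MT-ND2 by 0.47, MT-ND6 by 0.44, MT-ND4 by 0.43 and MT-ND5 by 0.41. MT-CYB, the mitochondrially encoded subunit of complex III, stood at 1456 and 1118 CPM in F3 controls and at 1878 and 1968 in G7 controls. MT-CO1 (0.20) and the rRNAs MT-RNR1 (0.20) and MT-RNR2 (0.17) did not pass. Without F3 control replicate 2, none of the 13 mRNAs passed between the lines.

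Nuclear genes for the same complexes were described by counts and medians beside these. Of 78 nuclear-encoded oxidative phosphorylation subunits tested in mutant against wild type, 0 rose and 7 fell, with a median of -0.28, where 2.07% of all genes tested fell. By complex the medians were -0.28 for complex I (4 of 36 fell, NDUFAB1 by 0.54), -0.21 for complex II (0 of 4 fell, SDHB being at -0.24), -0.32 for complex III (1 of 9 fell, UQCR10 by 0.45), -0.25 for complex IV (1 of 11 fell, COX7B by 0.57) and -0.31 for ATP synthase (1 of 18 fell, ATP5MF by 0.54). Of 72 nuclear genes of mitochondrial DNA replication, RNA synthesis, RNA maturation and translation, 1 passed. This was TOP1MT, the mitochondrial topoisomerase, which rose by 0.40 (adjusted p = 0.0479). The next by p, none past the threshold, were HSD17B10, a subunit of mitochondrial RNase P, at -0.45, COX14, a complex IV assembly factor, at -0.54 and TBRG4, an RNA-stability protein of the FASTK family, at -0.30. The RNA polymerase POLRMT was at -0.22, the transcription and packaging factor TFAM at -0.40, the transcription factor TFB2M at -0.24 and the elongation factor TEFM at -0.07. The mRNA-stabilising partners LRPPRC and SLIRP were at 0.10 and -0.42, and the poly(A) polymerase MTPAP at -0.08. In F3 alone against wild type TFAM fell by 0.53 (adjusted p = 0.00952) and SLIRP by 0.42 (adjusted p = 0.0479); in G7 they were at -0.28 and -0.41 and did not pass. HSD17B10 fell by 0.51 in F3 and 0.39 in G7, and COX14 by 0.47 and 0.60.

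After HHT, every mRNA and both rRNAs of the mitochondrial chromosome were lower in the fit of both lines. All 13 mRNAs fell over the 8 mutant libraries with line as a covariate, where 39.3% of all genes tested fell, and the median over the 13 was -0.95 against -0.00 over all genes. MT-CO1 stood at 8363 and 6273 CPM in F3 controls and 2901 and 2685 after HHT, and at 7543 and 9311 in G7 controls and 4371 and 4607 after HHT. All 4 HHT libraries thus lay below all 4 controls, and MT-CO1 fell by 1.16 ± 0.12 on the log2 scale (adjusted p = 4.35e-07), a 2.23-fold drop and the deepest of the 13. MT-ND6 of the reverse strand stood at 522, 410, 597 and 664 CPM in the controls and at 189, 190, 357 and 328 after HHT, without overlap, and fell by 1.09 ± 0.10.

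The mRNAs that share a transcript fell alike. MT-ATP8 fell by 1.05 ± 0.10 and MT-ATP6 by 1.06 ± 0.10, and MT-ND4L fell by 1.02 ± 0.10 and MT-ND4 by 1.06 ± 0.10. Reads of MT-ATP8 per read of MT-ATP6 were 0.137 to 0.148 in the 4 controls and 0.142 to 0.147 after HHT. MT-ND5 fell by 0.95, MT-CO2 by 0.84, MT-ND2 by 0.67, MT-CO3 by 0.57, MT-ND1 by 0.55 and MT-ND3 by 0.54. MT-CYB fell least, by 0.29 ± 0.09 (adjusted p = 0.0074). It stood at 1456, 1118, 1878 and 1968 CPM in the controls and 949, 947, 1727 and 1781 after HHT, so its groups overlapped across lines though not within a line. Across the lines 7 of 13 mRNAs had no overlap between HHT and control libraries, and within each line all 13 had none. The share of all genes without overlap was not counted, and each line had few libraries per group. By edgeR's test 79.2% of all genes tested changed after HHT in either direction. These overlap counts therefore describe the libraries and do not set mitochondrial mRNAs apart from other genes.

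Because MT-CYB fell less than the rest, its share of mitochondrial mRNA reads was 4.95% to 6.04% in the controls and 7.67% to 8.51% after HHT. The share of MT-CO1 was 24.3% to 28.4% in the controls and 21.5% to 23.4% after HHT. Neither share overlapped between the groups. MT-CO1, MT-CO2 and MT-CO3 together kept 48.9% to 53.3% of these reads in controls and 47.6% to 51.9% after HHT. Across the 13 mRNAs, which share the same libraries, the change after HHT had a Pearson r of -0.006 with start, 0.106 with log2 length and 0.267 with GC percent.

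The rRNAs fell as well, MT-RNR2 by 0.89 ± 0.11 and MT-RNR1 by 0.65 ± 0.12. MT-RNR2 stood at 6945, 5855, 6363 and 8038 CPM in controls and 2886, 2918, 4583 and 4718 after HHT, with no overlap. Of the tRNAs only MT-TP could be tested; it stood at 41.9, 32.8, 40.5 and 38.6 CPM in controls and 18.1, 16.1, 20.2 and 19.0 after HHT, and fell by 1.08 ± 0.09 (adjusted p = 7.23e-08). The size of each change depends on the scaling: with library totals alone in place of TMM the median of all genes moved to 0.23 and that of the 13 mRNAs to -0.72, 12 of 13 passed, and MT-CYB was at -0.06 (adjusted p = 0.546, against 0.0074 with TMM and 0.00152 in F3 and 0.19 in G7 alone).

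**Figure D2:**
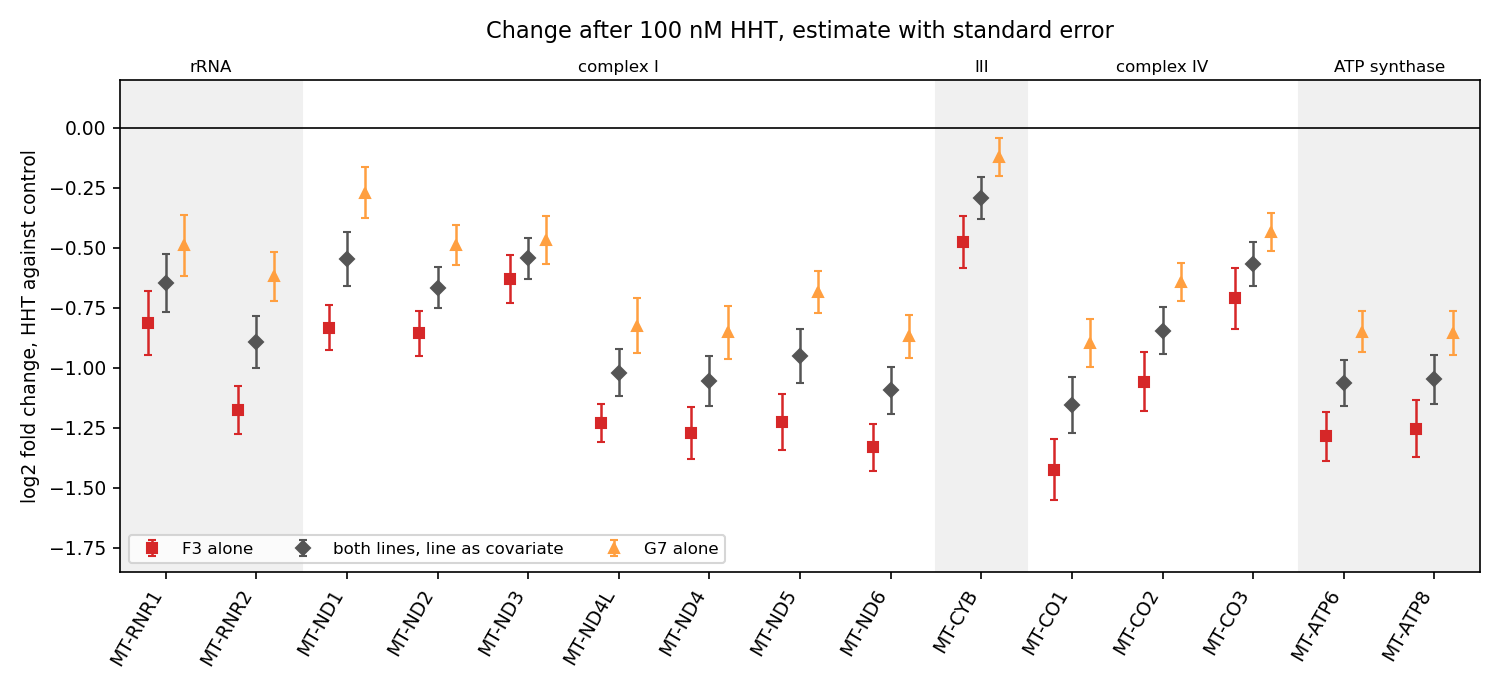
Log2 fold change after HHT with its standard error (bars) for the 2 rRNAs and 13 mRNAs, in F3 alone (squares), G7 alone (triangles) and both lines (diamonds). MT-CYB lies nearest to 0 and MT-CO1 farthest in every fit, and F3 lies below G7 for all 15 genes.

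In F3 alone all 13 mRNAs fell, from 0.48 for MT-CYB to 1.42 for MT-CO1, where 38.5% of all genes tested fell. In G7 alone 12 fell, from 0.27 for MT-ND1 to 0.90 for MT-CO1, where 34% of all genes tested fell. MT-CYB was at -0.12 in G7. The difference between the responses was tested as an interaction of line and treatment by edgeR, and 0 of 13 mRNAs and 0 of 2 rRNAs passed, where 3.8% of all genes tested did. All 13 differences were above 0, from 0.14 for MT-ND3 to 0.54 ± 0.15 for MT-ND1 (adjusted p = 0.065), 11 had an unadjusted p under 0.05, and MT-RNR2 was at 0.53 ± 0.15 (adjusted p = 0.0585). DESeq2 called 2 and limma-voom 0 of the 13 mRNAs. With no filter on low counts 10 passed, with library totals alone 1, without F3 control replicate 2 10 and without G7 control replicate 4 8. MT-RNR2 passed with library totals alone (adjusted p = 0.0372), no filter (1.69e-06), DESeq2 (0.0119) and limma-voom (0.0496), and without either of those 2 controls (0.0388 and 0.000767), so 0 calls here does not show that the lines responded alike.

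Nuclear genes for the same machinery moved in both directions after HHT. Of the 72 genes of mitochondrial DNA replication, RNA synthesis, RNA maturation and translation, 44 rose and 19 fell, with a median of 0.30. Over all genes tested 39.9% rose and 39.3% fell. MTPAP rose by 0.93 and TEFM by 0.97, TFAM rose by 0.32, TFB2M fell by 0.35 and LRPPRC fell by 1.28 (adjusted p = 2.23e-10). POLRMT at -0.08 and SLIRP at 0.01 did not pass. The 4 others with the smallest adjusted p were TOP1MT, which fell by 1.82, and MTRF1L, a mitochondrial release factor, NSUN4, an rRNA methyltransferase of the mitochondrial ribosome, and PDE12, a mitochondrial phosphodiesterase that removes poly(A), which rose by 2.19, 1.35 and 1.35. Of 77 nuclear oxidative phosphorylation subunits 7 rose and 50 fell, with a median of -0.28. The falls were 19 of 35 in complex I (NDUFV1 by 0.90), 4 of 4 in complex II (SDHA by 0.90), 6 of 9 in complex III (UQCRH by 0.70), 10 of 11 in complex IV (COX7C by 0.68) and 11 of 18 in ATP synthase (ATP5F1B by 0.76). The median fall was 0.47 in nuclear complex IV and 0.23 in nuclear complex I.

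RNA pulled down by RiboLace had another mitochondrial make-up than total RNA. In wild type 10 of 13 mRNAs were higher in RiboLace than in total RNA (27.3% of genes tested were higher) and 2 were lower (21.0% lower). In F3, 5 of 13 were higher (26.5% higher) and 2 lower (22.7% lower). MT-ND5 led in both, by 2.59 ± 0.24 in wild type and 1.74 ± 0.24 in F3. It stood at 1043 and 969 CPM in wild-type total RNA and 6668 and 4181 in wild-type RiboLace, and at 1802 and 1341 against 4167 and 5707 in F3. These CPM were scaled within each assay, and the groups do not overlap. MT-ND6 was higher by 2.16 in wild type and 1.63 in F3, MT-ND4L by 2.27 and 0.90, MT-CYB by 1.41 and 0.95 and MT-ND3 by 0.99 and 1.00. Without F3 RiboLace replicate 2 the F3 value of MT-ND4L was 0.47 (adjusted p = 0.221).

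The complex IV mRNAs went the other way. MT-CO1 was lower in RiboLace by 0.95 ± 0.22 in wild-type cells (-0.95, adjusted p = 0.00131) and by 1.49 ± 0.23 in F3 (-1.49, adjusted p = 1.2e-05). Its wild-type CPM were 5262 and 4686 in total RNA and 2807 and 1814 in RiboLace. Those of F3 were 8363 and 6273 in total RNA and 2219 and 2663 in RiboLace. MT-CO2 was at -0.88 in wild type and -0.91 in F3, both past the threshold, and MT-CO3 at -0.34 and -0.29, neither past it. The MT-CO2 call was lost in wild type without total RNA replicate 1 (-0.60) and in F3 without control replicate 1 (-0.58) or RiboLace replicate 1 (-0.74). MT-CO3 passed in wild type without RiboLace replicate 1 (-0.75, adjusted p = 0.00943) and with no filter (adjusted p = 0.017). Of the rest, MT-ND1 (1.24), MT-ATP8 (0.97), MT-ND4 (0.82), MT-ATP6 (0.75) and MT-ND2 (0.64) passed in wild type, and in F3 they lay between 0.12 for MT-ND4 and 0.50 for MT-ATP8 and did not. Under some alternatives in edgeR, MT-ATP8 and MT-ATP6 passed in F3 too. With RLE factors their adjusted p were 0.0306 and 0.0372, and with scaling on protein-coding genes 0.0324 and 0.0394. MT-ATP8 also passed with replicate blocks (0.52, adjusted p = 0.0465). Without wild-type RiboLace replicate 1 the wild-type calls on MT-ND2 (-0.01), MT-ATP6 (0.17), MT-ND4 (0.24), MT-ATP8 (0.47) and MT-ND3 (0.50) were lost. The MT-ND2 call was also lost with library totals alone, DESeq2 or limma-voom (adjusted p = 0.102, 0.0809 and 0.0708) and without either wild-type total RNA library, and those on MT-ND4 and MT-ATP6 without wild-type total RNA replicate 2.

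As shares of mitochondrial mRNA reads, complex IV mRNAs made up 47.6% to 53.9% in the 10 total RNA libraries and 20.7% to 25.8% in the 4 RiboLace libraries. Complex I mRNAs made up 34.1% to 39.4% and 57.1% to 62.9%. MT-ND5 alone was 4.83% to 6.67% in total RNA and 19.4% to 21.3% in RiboLace. Across the 13 mRNAs the RiboLace to total RNA change in F3 had a Pearson r of -0.846 with the log2 level per kb in wild-type total RNA and of 0.630 with the start position; in wild type the r with start was 0.529. The genes share their libraries, and these r are descriptions. The change has total RNA as its denominator, so a negative r with the level in total RNA can arise from that alone.

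**Figure D3:**
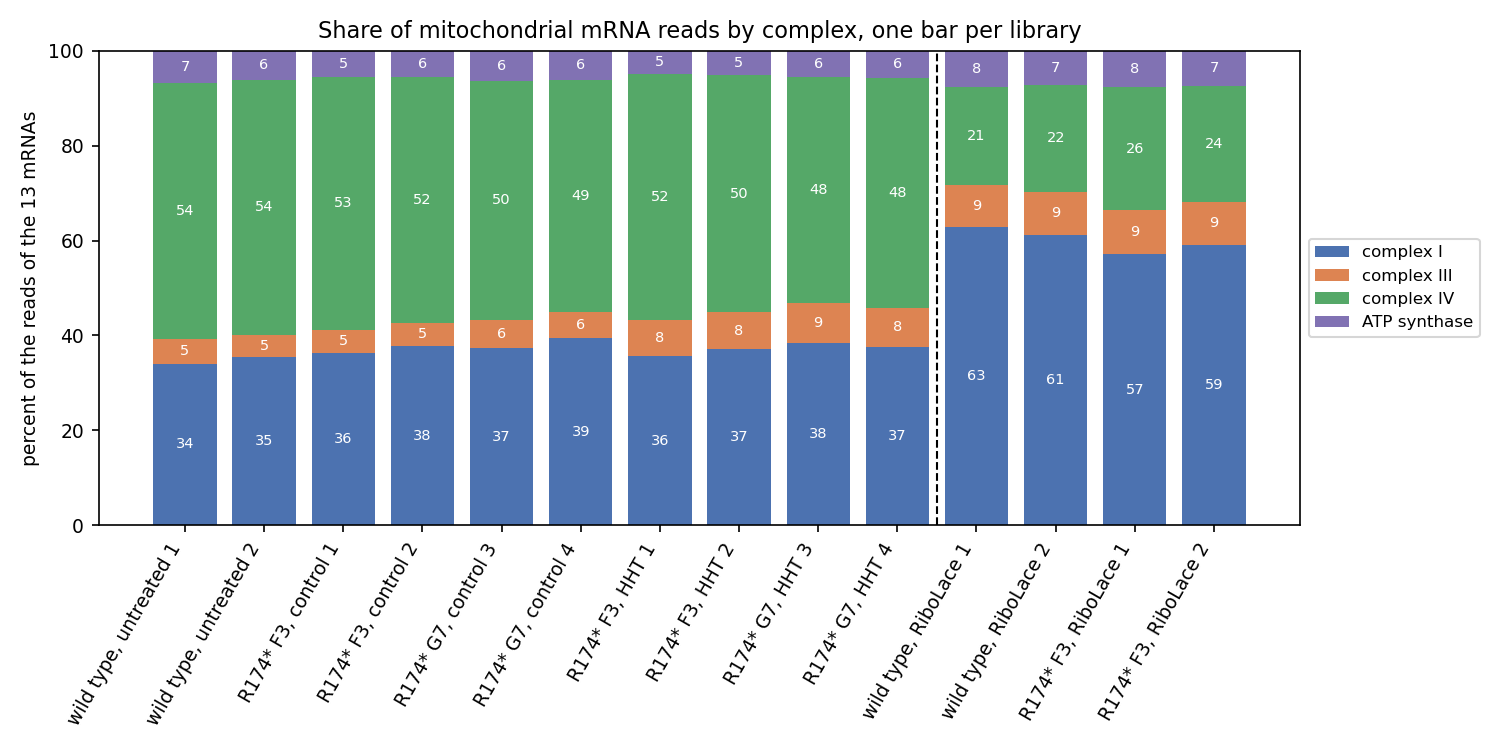
Share in percent of the reads of the 13 mitochondrial mRNAs by complex, 1 bar per library, with total RNA left and RiboLace right of the dashed line. Complex IV takes 47.6% to 53.9% of reads left of the line and 20.7% to 25.8% right of it.

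**Figure D4:**
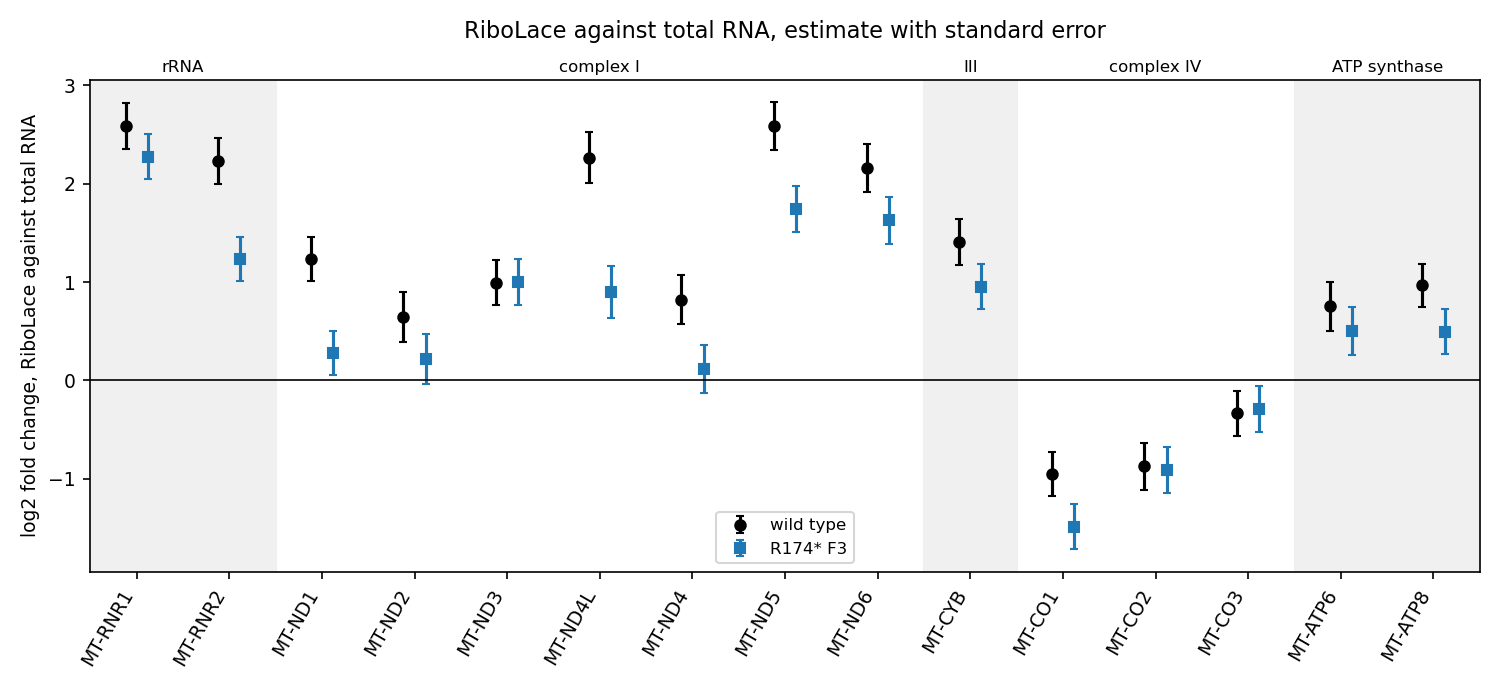
Log2 fold change of RiboLace against total RNA with its standard error (bars) for the 2 rRNAs and 13 mRNAs, in wild type (circles) and F3 (squares). The 3 complex IV mRNAs lie below 0 and the other 12 genes above 0 in both.

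Both rRNAs were higher in RiboLace. MT-RNR1 was higher by 2.59 ± 0.23 in wild type and 2.27 ± 0.23 in F3, and MT-RNR2 by 2.23 ± 0.23 and 1.23 ± 0.23. Reads of the rRNAs per read of the mRNAs were 0.244 to 0.318 in total RNA and 0.784 to 0.961 in RiboLace. The 2 rRNAs, which sit in the small and the large subunit of one ribosome, did not keep 1 ratio: reads of MT-RNR2 per read of MT-RNR1 were 3.27 and 3.13 in wild-type RiboLace and 2.19 and 2.00 in F3 RiboLace, and 2.91 to 5.39 in total RNA. Within the G7 controls alone this ratio was 3.29 and 5.39, so it also varied between replicates of total RNA.

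For the ratio of RiboLace to total RNA, 0 of 13 mRNAs and 0 of 2 rRNAs passed between F3 and wild type by edgeR's interaction test, where 1.49% of all genes tested did. Of the 13 mRNAs, 3 had an unadjusted p under 0.05, and DESeq2 and limma-voom called 0 of them. Differences ran from -1.37 ± 0.36 for MT-ND4L (adjusted p = 0.0579) to 0.04 for MT-CO3, with MT-ND1 at -0.96 and MT-RNR2 at -0.995, and 11 of 13 were below 0. With no filter on low counts 3 mRNAs passed, and over all genes 527 passed, against 229 with the filter. Without wild-type RiboLace replicate 2, which leaves 1 library in that group, MT-ND4L moved to -1.81 and MT-ND1 to -1.29. MT-RNR2 passed with DESeq2 (-0.95, adjusted p = 0.0427), with no filter (adjusted p = 0.000359) and without wild-type RiboLace replicate 2 (-1.30, adjusted p = 0.00206).

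RiboLace libraries of F3 and wild type, compared with each other, gave 0 of 13 mRNAs and 0 of 2 rRNAs past the threshold by edgeR, where 11.8% of all genes tested passed in either direction. None of the 13 had an unadjusted p under 0.05, DESeq2 and limma-voom called 0, and values ran from -0.60 ± 0.34 for MT-ND4L to 0.25 ± 0.35 for MT-CO2. MT-RNR1 was at 0.25 ± 0.43 and MT-RNR2 at -0.38 ± 0.51. All 13 mRNAs had overlapping groups, the 2 wild-type libraries lying apart by more than the genotypes: MT-ND4 stood at 6953 and 3795 CPM in wild type and 3920 and 5654 in F3. Standard errors of the mRNAs were 0.28 to 0.42, so changes of the size seen in total RNA could go undetected at this depth. Nuclear oxidative phosphorylation subunits in the same comparison had 28 of 75 lower in F3 (5.59% of all genes tested were lower), 0 higher and a median of -0.82, against -0.01 over all genes. Of 64 nuclear genes of mitochondrial DNA replication, RNA synthesis, RNA maturation and translation tested, 6 fell and 1 rose (6.18% of all genes tested rose). SLIRP fell by 1.32 (adjusted p = 0.00527) and TFB2M by 0.96 (adjusted p = 0.0438), and POLG2 rose by 1.92 (adjusted p = 0.0217).

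Among the tRNAs, 2 of 10 tested were higher in F3 than in wild-type RiboLace, where 6.18% of all genes tested were higher. MT-TH, the histidine tRNA, had 229 and 111 CPM in wild type (427 and 117 reads) and 541 and 531 CPM in F3 (633 and 251 reads). It was higher by 1.64 ± 0.31 (adjusted p = 0.000685), without overlap. MT-TG, the glycine tRNA, had 27.3 and 14.2 CPM in wild type and 41.0 and 69.8 in F3, from 15 to 51 reads, and was higher by 1.27 ± 0.36 (adjusted p = 0.0192); it did not pass with DESeq2 or without wild-type RiboLace replicate 2 or F3 RiboLace replicate 2. MT-TS2, which follows MT-TH on the chromosome with no base between them, was at -0.25 ± 0.28. Reads of MT-TH per read of MT-TS2 were 0.761 and 0.613 in wild type and 3.10 and 2.24 in F3. No total RNA library had a read of either, so whether the level of MT-TH in total RNA differed cannot be seen.

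The tRNAs differed most between the assays. The 10 total RNA libraries held 5794 tRNA reads in all, 5668 of them MT-TP, and only MT-TP and MT-TC reached 10 reads in any of them. The 4 RiboLace libraries, at far lower depth, held 10210 tRNA reads, with 13 of 22 tRNAs at 10 or more reads in at least 1 library and 9 in all 4. MT-TP made up 95.9% to 99.0% of tRNA reads in total RNA and 30.4% to 42.4% in RiboLace. It was 34.7-fold higher in wild-type RiboLace than in total RNA and 21.9-fold higher in F3.

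The leucine tRNA MT-TL1 had 326, 361, 321 and 508 CPM in the RiboLace libraries (wild type, then F3) and no read in total RNA, which makes it at least 4796-fold higher in wild type and 5195-fold in F3, with 3 reads over the group as the floor. By the same floor MT-TS2 was at least 3650-fold and 2669-fold higher, MT-TH 2641-fold and 7467-fold, MT-TT 1665-fold and 1208-fold, MT-TL2 626-fold and 642-fold, MT-TG 320-fold and 684-fold, MT-TI 204-fold and 211-fold and MT-TD 38.8-fold and 118-fold. MT-TF had 160 to 614 reads per RiboLace library and 2 reads in each total RNA group, a ratio of 6014 (95% interval 1660 to 49750) in wild type and 6880 (1895 to 56950) in F3, counting error only. MT-TM had 0 to 10 reads per RiboLace library. MT-TY had 26 RiboLace reads against 1 in wild type and 16 against 3 in F3, and MT-TC 26 against 17 and 5 against 21. Scaled to depth, MT-TY was 379-fold higher in RiboLace in wild type (95% interval 62.2 to 15520) and 135-fold in F3 (38.7 to 724), counting error only. MT-TC was 22.3-fold higher in wild type and 6.03-fold in F3, and its F3 value did not pass by edgeR. The other 9 tRNAs had at most 5 reads in any library, and MT-TQ, MT-TN, MT-TS1 and MT-TK had none. Fragment size selection in either assay is not given in the sources used here, and its part in these ratios was not tested.

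**Figure D5:**
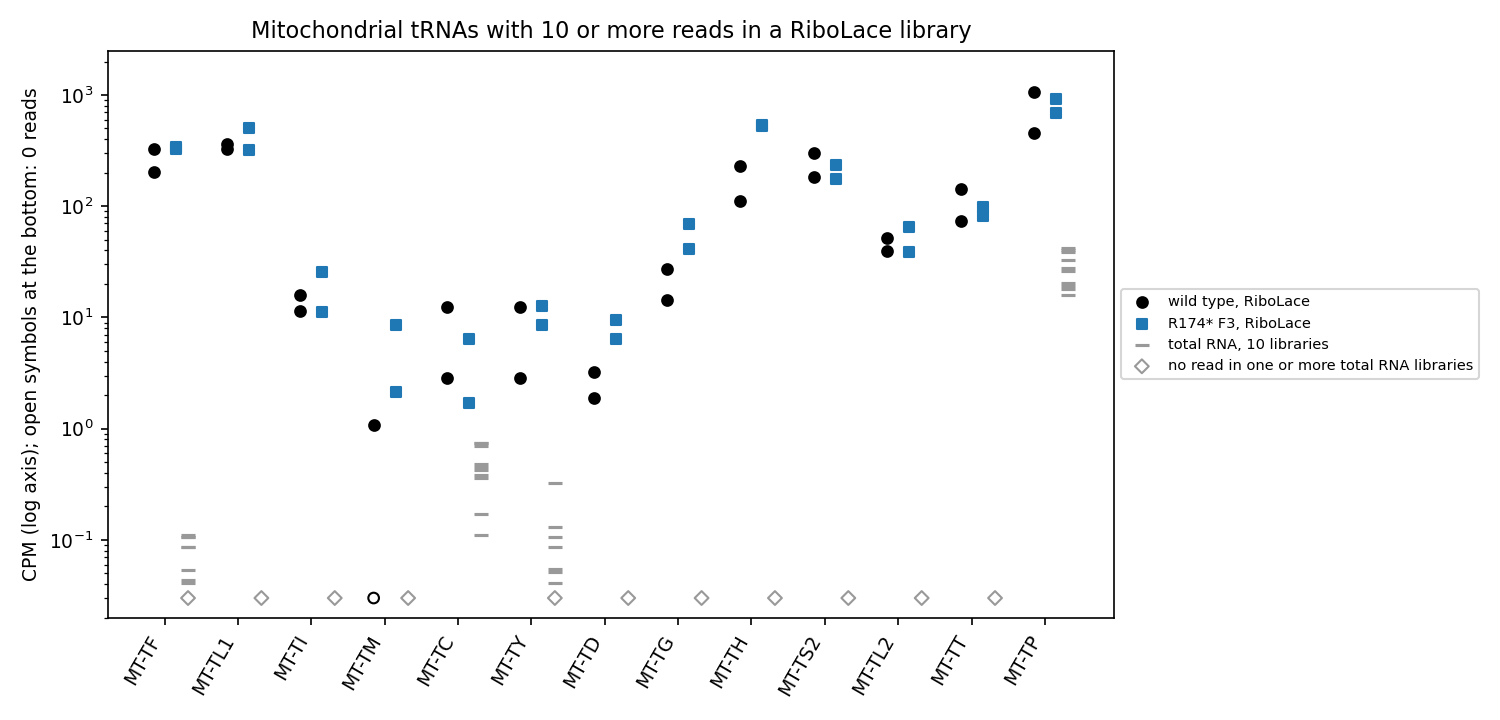
CPM, on a log axis, of the 13 tRNAs with 10 or more reads in a RiboLace library: wild-type RiboLace (circles), F3 RiboLace (squares) and the 10 total RNA libraries (dashes), open symbols at the bottom marking 0 reads. MT-TP is the one tRNA seen above 1 CPM in total RNA, and the F3 points of MT-TH, 541 and 531 CPM, lie clear of its wild-type points.

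Copies of mitochondrial DNA in the nuclear genome can take or give reads. Of 406 such genes in the annotation, 32 reached 10 reads in a library and 296 had none. The most counted were MTATP6P1, MTND2P28 and MTCO1P12, all on chromosome 1. MTATP6P1 had 14.4% to 15.4% of the reads of MT-ATP6 in the total RNA libraries and 5.19% to 8.13% in RiboLace, so its share was nearly fixed across line, genotype and HHT. MTND2P28 had 2.04% to 2.68% of the reads of MT-ND2 in total RNA and 4.75% to 6.31% in RiboLace, and MTCO1P12 0.132% to 0.182% and 1.24% to 2.09% of those of MT-CO1. The MTRNR2L copies of MT-RNR2 had 24 to 80 reads per total RNA library and 139 to 681 per RiboLace library, or 1.64% to 3.36% of the reads of MT-RNR2 there. The handling of reads that match both is not given in the sources used here; levels of MT-ATP6 in particular are uncertain for this reason.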

How the data were processed

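Total RNA (10 libraries) and RiboLace RNA (4 libraries) were analysed from the deposited table of raw counts per gene, one column per library. The submitters' processing notes name STAR 2.6.0b, DESeq2 and GRCh38 without giving their role. For the counting program, annotation, strand setting and rRNA removal nothing is given in the sources used here. Overlapping genes and genes on opposite strands may therefore share reads. Of 58037 gene IDs, 57433 matched GENCODE release 29, which gave symbols, coordinates and sequences, and all 37 mitochondrial genes matched.

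Counts were tested with edgeR 4.0.16 in R 4.3.3 (filterByExpr, TMM scaling, quasi-likelihood test) and Benjamini-Hochberg adjustment over all genes tested, at 0.05. Every adjusted p in the text is from edgeR's quasi-likelihood test unless another tool is named, and a log2 fold change is given ± SE. Mutant and wild-type libraries were compared with both lines as 1 group and by line, and HHT with line as a covariate. RiboLace and total RNA of wild type and F3 shared 1 estimate of spread. CPM were scaled within each assay and divided by annotated length to compare genes. Alternatives were DESeq2 1.42.0, voom in limma 3.58.1, RLE factors, scaling by library totals alone, no filter on low counts, each library left out, and replicate blocks. Mitochondrial genes were also left out of the scaling, and RiboLace was scaled on protein-coding genes. All 37 members were examined, mRNAs and rRNAs by name and tRNAs by name where a library had 10 reads. Of the nuclear genes, 7 set ones, up to 4 more with the smallest adjusted p per comparison and 1 subunit per complex were eligible to be named. The members and lists were chosen with earlier results of these data known. Intervals and floors cover counting error only; 3 reads bound a count of 0.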

Additional observations from a re-analysis of the deposited data

Results flagged for a closer look

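Both mutant lines were set against the same wild-type libraries, and untreated G7 and F3 differed from each other, by edgeR's test of the difference, for 8 of 13 mRNAs. The log2 difference of G7 over F3 was 0.58 for MT-CYB, 0.55 for MT-ATP6, 0.55 for MT-ATP8, 0.49 for MT-ND4L, 0.47 for MT-ND2, 0.44 for MT-ND6, 0.43 for MT-ND4 and 0.41 for MT-ND5. None of the 13 passed without F3 control replicate 2, whose mitochondrial share was 2.71% against 3.59% in the other F3 control.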

How the results depend on the processing

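Of 1452 values of members past a threshold, recomputed under the alternatives, 1392 kept their direction and their side of it, 59 kept the direction but not the threshold and 1 reversed. All 13 mRNAs fell after HHT in each fit that left out a library, and 12 with library totals alone. For mutant against wild type in total RNA, 4 mRNAs passed, 10 with no filter, 8 with DESeq2 and 0 to 8 without 1 library. F3 against wild type gave 2 to 8 without 1 library, and G7 against F3 0 to 10. The HHT response of G7 against F3 gave 1 with library totals alone, 10 with no filter, 2 with DESeq2 and 0 to 10 without 1 library. Mutant against wild type in RiboLace gave 0 to 1, and the difference in RiboLace over total RNA gave 3 with no filter and 0 to 8 without 1 library. Leaving out 1 library moved the log2 value of MT-ND3 in F3 against wild type between -0.19 and 0.17, and its HHT difference between lines between -0.00486 and 0.34. For G7 against F3, MT-RNR1 ran from -0.00351 to 0.37 and MT-RNR2 from -0.00909 to 0.33. In RiboLace mutant against wild type, MT-RNR1 ran from -0.036 to 0.56, MT-CO2 from -0.062 to 0.60 and MT-TS2 from -0.59 to 0.15. For RiboLace against total RNA, MT-ND2 ran from -0.0085 to 1.03 in wild type, and in F3 MT-CO3 from -0.55 to 0.060 and MT-ND4 from -0.15 to 0.38. The difference of MT-CO3 between genotypes ran from -0.25 to 0.42. The cause was not tested. Where 1 library was left in a group, it was assumed to vary like the others. With library totals alone the median of all genes moved to 0.23 for HHT and to -0.13 for RiboLace against total RNA in wild type, where 9 mRNAs were higher and 2 lower.

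Replicate numbers were not taken as pairs: control and HHT libraries of the same number correlated in their deviations from group means (r 0.528 to 0.629), but libraries of one line with other numbers did too (0.383 to 0.607), the numbers in the column names differ from those in the titles, and r within a line was 0.209 in F3 and 0.413 in G7. With the replicate number as a block, 8 mRNAs passed in F3 against wild type, 13 for HHT, 0 for the genotypes in RiboLace, and 12 in wild type and 8 in F3 for RiboLace against total RNA; the block moved none of these counts by over 1.5 times. With the wild-type RiboLace numbers crossed, chosen after seeing the data because same-numbered libraries gave r of -0.105, the count was 12. Over all genes, the number called moved as well: mutant against wild type gave 636 (1655 with no filter, 1111 with DESeq2, 43 to 649 without 1 library), F3 against wild type 2518 (948 to 3250), G7 against F3 1743 (847 to 2278), the HHT response between lines 548 (823 with no filter, 178 to 1089 without 1 library), the genotypes in RiboLace 1154 (415 with DESeq2, 247 to 1811 without 1 library), RiboLace against total RNA in F3 7548 (4679 to 7885), and the difference in that ratio 229 (75 with voom, 151 with library totals alone, 527 with no filter, 634 with DESeq2, 24 to 1497 without 1 library). RiboLace depth, 465052 to 2034796 reads, limits the smaller differences there.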
